A study of Rattus norvegicus with 24 samples.

Results

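Segment 2 was compared with Segment 1 in the Sham wounds of a spatial transcriptome experiment on diabetic rat skin. The comparison rests on 8 of the 24 areas profiled in the study, 4 of Segment 2 and 4 of Segment 1, chosen from the labels alone. Male SD rats were made diabetic with STZ (streptozotocin, which destroys the insulin-producing beta cells) at 5 weeks of age. Each received a full-thickness skin defect of 8 mm that was splinted against contraction, and the wounds were collected on day 7. The labels do not describe what a Sham wound received. The other 16 areas came from wounds given a hydrogel (Gel) or a nanozyme hydrogel (CuNZ@Gel), so diabetes, wounding and splinting were shared by all 3 groups.

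The GeoMx instrument reads RNA through tagged probes that are released by light from a drawn area of a fixed section. Regions were chosen on the section and the areas within them were outlined by positive immunofluorescence. The labels do not name the stained proteins, do not say what separates Segment 1 from Segment 2, and give the region name "mac" without its meaning. Sham held 2 numbered specimens (C1 and C2) with 2 regions each, and every region gave 1 area of each segment, so 4 region pairs were available. The labels do not say that a specimen is 1 animal. The p-values measure how far the segment difference varies between specimens of a group. That spread was estimated jointly from the 6 specimens of all 3 groups and pooled over targets. Values below are listed in the order specimen 1 region 1, specimen 1 region 2, specimen 2 region 1 and specimen 2 region 2.

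A wound at this stage is filled by granulation tissue, a mixture of macrophages, new capillaries with their pericytes, and fibroblasts that lay down collagen. Macrophages clear debris through lysosomal proteases and scavenger receptors and secrete factors that guide repair. Endothelial cells and pericytes jointly build the vascular basement membrane of type IV collagen, laminins and perlecan, while myofibroblasts carry contractile actin fibres.

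Segment 2 areas were shallower than their Segment 1 partners in 4 of 4 regions. The counts recovered from the deposited signal were 490586, 534458, 1476512 and 1133421 in Segment 1 and 118813, 156190, 160737 and 183294 in Segment 2. Segment 1 therefore held 4.13, 3.42, 9.19 and 6.18 times as many counts, and segment and depth cannot be told apart in Sham. The share of targets at a single count, the lowest value listed, was 5.81%, 5.40%, 0.110% and 0.246% in Segment 1 and 46.4%, 38.3%, 32.7% and 30.5% in Segment 2. The groups did not overlap in either measure.

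**Figure D1:**
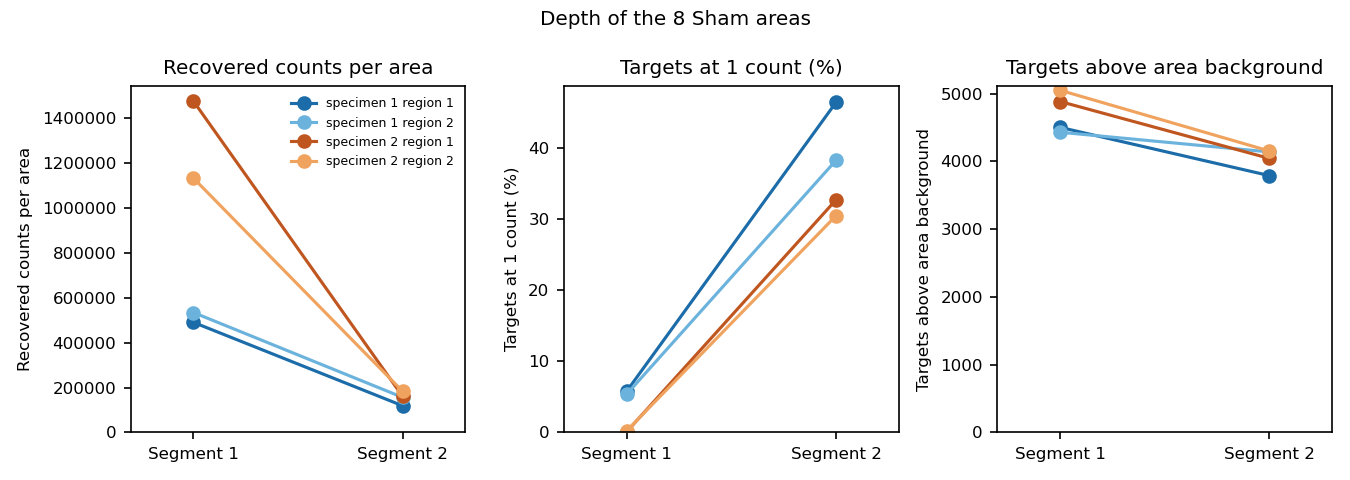
Recovered counts, share of targets at 1 count (%) and number of targets above the area's own background in the 8 Sham areas, with 1 line per region joining Segment 1 to Segment 2. Segment 2 held fewer counts (118813 to 183294, against 490586 to 1476512), more targets at a single count and fewer targets above background in all 4 regions.

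The background of an area was the signal exceeded by 1% of 1127 targets for odorant, vomeronasal and trace amine receptors (their 99th percentile), taken as probes with little or no signal of their own. It lay at a signal of 12.2 to 14.96 in Segment 1 and 14.3 to 15.8 in Segment 2. A target was called above background when its signal, averaged on the log2 scale over the 8 areas, reached that level (4246 targets), and well above it at 1 log2 unit more (2261 targets). The markers of skin epithelium were not found: of 20 keratinocyte targets tested, including Krt5 and Krt14, none was above background. No neutrophil (14 tested), mast cell (9) or hair follicle (9) marker was above background either. By contrast 12 of 19 fibroblast targets, 19 of 22 collagen and matrix targets and 9 of 20 pan-macrophage targets were. Target symbols follow mouse naming, and a probe that reads rat RNA poorly would also give a low value.

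Segment 2 was lower than Segment 1 for several markers of macrophages, of lysosomes and of vessel walls, and higher for Palld, which encodes an actin-bundling protein. Among the targets well above background, 23 passed (1.02% of 2261): 22 fell in Segment 2 (0.973%) and 1 rose (0.0442%) at an adjusted p under 0.05 (limma, Benjamini-Hochberg over 19728 targets, specimen as a block). The falls ran from −1.05 to −0.52 on the log2(signal + 1) scale. Of the 22, 21 were lower in 4 of 4 regions, 12 had no overlap between the segments and 10 had some. For comparison, 15.9% of all targets well above background were lower in 4 of 4 regions, and 3.85% were lower without overlap. The median difference of all targets well above background was −0.081.

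Over all 19728 targets tested, 33 passed the threshold (0.167%), 31 lower (0.157%) and 2 higher (0.0101%). The split shifted with the scaling: 25 lower and 6 higher after scaling each area to the median of the targets well above background, and 11 lower and 4 higher after centring on the targets above background. The receptor targets gave no call at this threshold (limma, 0 of 1104), and their median difference was 0.12. DESeq2 on the recovered counts called 0 targets in the comparison and edgeR called 15 (10 lower and 5 higher); at an unadjusted p under 0.05 they gave 119 and 1062 targets, and limma gave 1631. The count of 33 became 3 without Sham specimen 1, 4 without Sham specimen 2, 12 or 13 without a Gel specimen and 55 or 56 without a CuNZ@Gel specimen. It became 21 without specimen 1 region 2, 63 without specimen 2 region 1 and 94 without specimen 2 region 2.

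**Figure D2:**
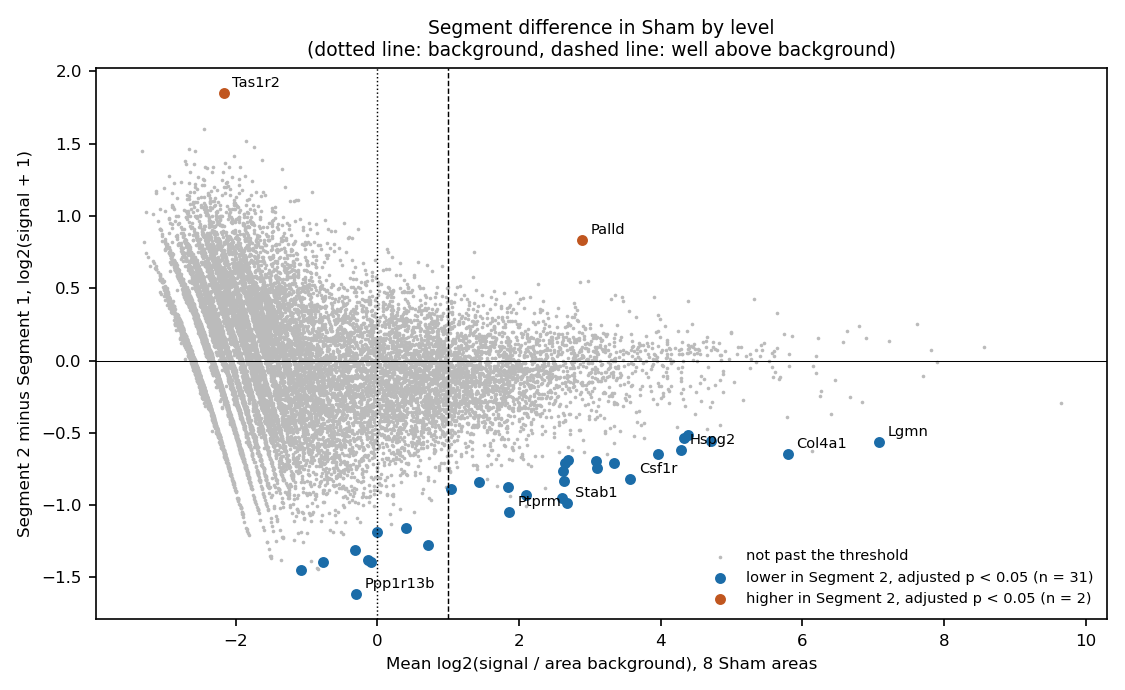
Difference between the segments (Segment 2 minus Segment 1, log2(signal + 1)) of each of the 19728 targets against its mean level over the 8 Sham areas (log2 of signal over area background). Blue points (31) fell and orange points (2) rose at an adjusted p under 0.05; right of the dashed line, at 1 log2 unit above background, 22 fell and, in this scaling, Palld alone rose.

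Csf1r, Cd68 and C1qc, which mark macrophages, fell in Segment 2. All 9 pan-macrophage targets above background had a negative difference, with a median of −0.65 against −0.095 for all targets above background; 3 of the 9 fell, where 0.565% of all targets above background did. The 11 others, among them Ptprc, Adgre1, Cd14, Itgam and Cd163, were at or under background in all 8 areas. In bulk areas, fewer cells of a type and less RNA per cell cannot be told apart. The summed signal of the 9 was 1721 to 1966 in the Segment 1 areas and 1040 to 1703 in the Segment 2 areas.

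Csf1r, the receptor for the macrophage growth factor CSF-1, had a signal of 217, 259, 203 and 220.4 in Segment 1 and 98.1, 159, 108 and 151 in Segment 2. All Segment 2 areas lay below all Segment 1 areas. The specimen means were 225 ± 18.7 and 129 ± 0.723 (SD, n = 2 specimens), a difference of −0.82 ± 0.14 (log2, SE; limma adjusted p = 0.00117).

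Cd68, a lysosomal glycoprotein used to stain macrophages, was at 339.8, 388, 216 and 204 in Segment 1 and 221, 196, 117 and 190.1 in Segment 2. Each Segment 2 area was below its own partner, but the shallowest gap, in specimen 2 region 2, was only −0.10, and the groups overlapped. Cd68 fell by 0.65 ± 0.13 (adjusted p = 0.00676). C1qc, a chain of the complement recogniser C1q, read 95.9, 99.6, 146 and 402 in Segment 1 and 82.8, 78.5, 40.9 and 298 in Segment 2. It was lower in every pair, yet specimen 2 region 2 stood far above the others in both segments, so the groups overlapped widely. Its difference was −0.70 ± 0.14 (adjusted p = 0.0127); without Sham specimen 2 it was −0.27 (adjusted p = 0.77), and without specimen 2 region 1 −0.35 (0.284). Blocked by region over 24 areas, C1qc did not pass (adjusted p = 0.0634).

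The other C1q chains and lysozyme were also lower on average without passing the threshold. C1qa differed by −0.72 (adjusted p = 0.164), C1qb by −0.72 (0.281) and Lyz2 by −0.52 (0.0812). Laptm5 differed by −0.15 and Fcer1g by −0.35, neither past the threshold. Cybb, the catalytic subunit of the phagocyte NADPH oxidase, was on no list and was named by the size of its change. It had 167, 171, 145 and 151 in Segment 1 and 92.0, 110.4, 73.6 and 104 in Segment 2, with no overlap, and fell by 0.75 ± 0.14 (adjusted p = 0.00391). P2ry6, a receptor for extracellular UDP, was at 123, 164, 107 and 88.0 in Segment 1 and 61.3, 78.5, 47.0 and 81.8 in Segment 2; the Segment 2 areas again lay below all Segment 1 areas, and it fell by 0.83 ± 0.16 (adjusted p = 0.00649).

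Stab1 and Mrc1, scavenger receptors of alternatively activated macrophages, also fell in Segment 2, while Arg1 did not pass the threshold. Of 19 such targets tested only Arg1, Mrc1 and Stab1 were above background, and 2 of these 3 fell, against 0.565% of all targets above background. Stab1, a scavenger receptor of macrophages and of sinusoidal endothelium, had 74.3, 138, 140.4 and 186 in Segment 1 and 33.7, 58.9, 63.4 and 133 in Segment 2. Every pair went down, although specimen 2 region 2 stayed high in both segments and the groups overlapped; the difference was −0.99 ± 0.17 (adjusted p = 0.00145). Mrc1, the mannose receptor, had 67.1, 91.6, 72.9 and 50.5 in Segment 1 and 24.5, 36.8, 49.1 and 42.9 in Segment 2, all below the Segment 1 areas. It fell by 0.87 ± 0.21 (adjusted p = 0.0460), with region differences between −1.42 and −0.23, and lost the call in 16 of 24 alternative analyses; without Sham specimen 1 it was at −0.39 (adjusted p = 0.999) and without Sham specimen 2 at −1.35 (0.0636). Arg1, the arginase that competes for the substrate of nitric oxide synthase, was at 228, 277, 156 and 95.7 in Segment 1 and 261, 297, 133 and 94.0 in Segment 2. It was higher in specimen 1 and lower in specimen 2 in Segment 2, with a difference of 0.0090 ± 0.17 (adjusted p = 0.994).

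Lgmn and Apoe fell among the genes of lysosomal degradation and lipid handling. Of 20 listed targets 9 were above background, 8 of them with a negative difference (median −0.33, against −0.095 for all targets above background), and 2 of the 9 fell, where 0.565% of all targets above background did. Lgmn, the lysosomal asparaginyl endopeptidase, was the strongest of these signals, at 2479, 3343, 1774 and 2029 in Segment 1 and 1723, 2028, 977 and 1817 in Segment 2. Each pair went down, with log2 differences of −0.16 to −0.86, but the specimens differed enough for the groups to overlap. The fall of 0.57 ± 0.072 had an adjusted p of 1.52e-06.

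Apoe, the apolipoprotein that carries cholesterol out of macrophages, had 26.0, 32.5, 37.8 and 81.3 in Segment 1 and 18.4, 17.2, 12.3 and 51.1 in Segment 2. It was under background in specimen 2 region 1 of Segment 2, and the groups overlapped; the difference was −0.89 ± 0.20 (adjusted p = 0.0269). Abca1, the transporter that loads cholesterol onto apolipoproteins, had 89.5, 114, 63.0 and 78.8 in Segment 1 and 36.8, 63.8, 24.5 and 63.4 in Segment 2, lower in every pair with 2 Segment 2 areas just above the lowest Segment 1 area. It fell by 0.93 ± 0.19 (adjusted p = 0.0113). Ctsz (cathepsin Z), Tcirg1 (a subunit of the proton pump that acidifies lysosomes) and Pld3 (a lysosomal nuclease) were chosen after their values were seen. Their differences were −0.56, −0.71 and −0.54 (adjusted p = 0.0105, 0.0351 and 0.0305), and Pld3 was the only one of the 22 that did not fall in every region, at a difference of 0.082 in specimen 2 region 2. Without specimen 2 region 1 Pld3 was at −0.26 (adjusted p = 0.465) and without specimen 2 region 2 at −0.82. Ctsl, Ctsd, Npc2, Lamp2 and Cd63 had differences of −0.73, −0.33, −0.31, −0.28 and −0.12, and Plin2 of 0.086, without passing the threshold.

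Spp1, which encodes osteopontin, varied widely between regions. Its signal was 827, 320.3, 194 and 3.50 in Segment 1 and 202, 167, 92.0 and 12.3 in Segment 2, so it was abundant in specimen 1 and at background in specimen 2 region 2. The difference of −0.62 ± 0.32 did not pass (adjusted p = 0.621). Antigen presentation genes were lower on average as well: Cd74, H2-Ab1 and H2-Eb1, the 3 of 9 class II targets above background, differed by −0.60, −0.44 and −0.38, none past the threshold.

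**Figure D3:**
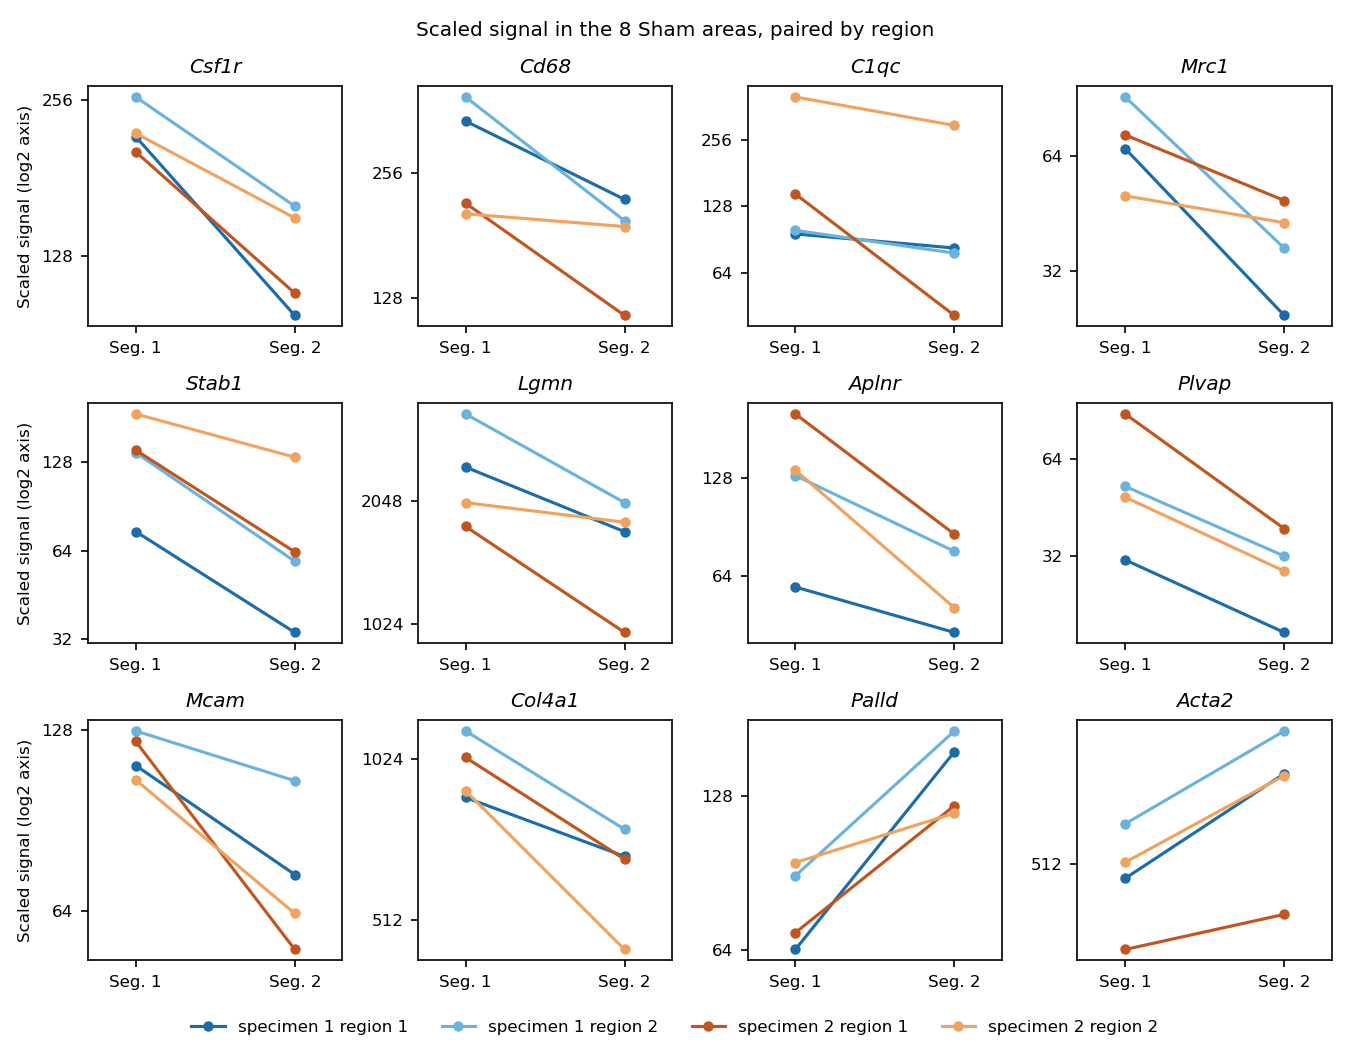
Scaled signal (log2 axis) of 12 genes in the 8 Sham areas, with 1 line per region joining its Segment 1 to its Segment 2 area. The lines of the first 10 genes all go down, those of Palld and Acta2 all go up, and the specimens differ in how far.

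Plvap, Aplnr, Ptprm, Mcam, Col4a1 and Hspg2, all known from vessel walls, fell in Segment 2, although only part of the endothelial list could be read. Pecam1, Cdh5 and Kdr were at or under background in all 8 areas, as were 12 of the 20 endothelial targets. Of the 7 above background 1 fell, Plvap (0.565% of all targets above background fell), and the list median was −0.19. Plvap, which forms the diaphragms of endothelial fenestrae and caveolae, had 31.0, 52.7, 88.7 and 48.7 in Segment 1 and 18.4, 31.9, 38.8 and 28.6 in Segment 2. It was lower in every pair, with overlap, and fell by 0.84 ± 0.19 (adjusted p = 0.0293). Sox18, an endothelial transcription factor, differed by −0.55 (adjusted p = 0.156), and Flt1, Cldn5 and Erg by −0.18, −0.19 and −0.19. The other two, Sox17 and Mmrn2, lay at 0.066 and 0.0027.

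Aplnr, the apelin receptor, and Ptprm, an adhesive receptor phosphatase, are both known from endothelium and were named by the size of their change. Aplnr had 59.2, 129.9, 201 and 135 in Segment 1 and 42.9, 76.0, 85.8 and 51.1 in Segment 2. Every pair went down, by more in specimen 2 than in specimen 1, and the difference was −0.95 ± 0.17 (adjusted p = 0.00186). Without Sham specimen 2 Aplnr was at −0.61 (adjusted p = 0.475), and with all 24 areas blocked by region it did not pass (0.379). Ptprm had the largest fall well above background, from 71.4, 84.4, 70.0 and 73.6 in Segment 1 to 30.7, 29.4, 51.1 and 34.7 in Segment 2, with no overlap. Its difference was −1.05 ± 0.20 (adjusted p = 0.00391).

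Mcam (CD146), an adhesion molecule of pericytes and endothelium, had 112, 128, 123 and 106 in Segment 1 and 73.6, 105, 55.2 and 63.4 in Segment 2. The highest Segment 2 area lay just under the lowest Segment 1 area, and Mcam fell by 0.68 ± 0.15 (adjusted p = 0.0230). Rgs5, a pericyte marker, was at 179.6, 185, 158 and 177 in Segment 1 and 119.6, 155, 102 and 100.2 in Segment 2, also without overlap, but its difference of −0.57 ± 0.22 did not pass (adjusted p = 0.453). Only 3 of 13 pericyte and smooth muscle targets were above background; the other one, Abcc9, a potassium channel subunit, was at 0.013 and lower in 2 of 4 regions. Without Sham specimen 2 the difference of Mcam was −0.44 (adjusted p = 0.572), and with all 24 areas blocked by region it did not pass (0.693).

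Col4a1, the alpha 1 chain of type IV collagen, read 869, 1158, 1033 and 895 in Segment 1 and 675, 758, 666 and 452 in Segment 2. The groups did not overlap, and the specimen means were 989 ± 35.1 and 638 ± 111 (SD, n = 2 specimens). The difference was −0.65 ± 0.088 (adjusted p = 6.77e-06). With all 24 areas blocked by region the size was the same but Col4a1 did not pass (adjusted p = 0.431). Hspg2 (perlecan) had 294, 356, 333 and 398 in Segment 1 and 254, 243, 200.3 and 200.3 in Segment 2, again with no overlap, and fell by 0.62 ± 0.12 (adjusted p = 0.00933). Without Sham specimen 2 Hspg2 was at −0.38 (adjusted p = 0.579). These were 2 of 6 basement membrane targets above background, where 0.565% of all targets above background fell; the laminin genes Lama2, Lama4 and Lamb2 differed by −0.28, −0.079 and −0.13 and did not pass. Red cell RNA, which marks blood in the section, was uneven between regions: Hba-a1 had 1752, 1030.2, 1584 and 823 in Segment 1 and 721, 1558, 568 and 654 in Segment 2, a difference of −0.62 ± 0.54 (adjusted p = 0.855). Its part in the vessel results was not tested.

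Other named falls belong to no cell type list. Tgfbr1, the type I receptor of TGF-beta, went from 176, 215, 140.2 and 216 in Segment 1 to 132, 93.2, 94.0 and 137 in Segment 2, and Ssh2, a phosphatase that activates cofilin, from 117, 119.8, 108 and 109.7 in Segment 1 to 70.5, 78.5, 49.1 and 71.5 in Segment 2. Neither overlapped between segments; the differences were −0.71 (adjusted p = 0.0145) and −0.76 (0.0308). Hspa5, the chaperone BiP of the endoplasmic reticulum, was the single fall among 11 unfolded protein response targets above background, at 372, 405, 341 and 306 in Segment 1 and 282, 238, 200.3 and 278 in Segment 2. These did not overlap, and the difference was −0.52 ± 0.12 (adjusted p = 0.0359). The other 10 ran from −0.50 (Hyou1) to 0.29 (Atf4), with 5 of the 11 lower in 4 of 4 regions, as were 13.8% of all targets above background.

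Palld was the only target well above background that rose, and it lost the call in 12 of 24 alternatives. These included background subtraction, where Sod2 alone rose, the omission of any Sham or Gel specimen, and the omission of each region except specimen 2 region 2. Palld was joined by Tmsb10, Prrx1 and Sod2 after quantile normalization, and by these and Actb after scaling to the targets well above background. Palladin is a scaffold that bundles actin filaments and is abundant in myofibroblasts. Its signal was 64.2, 89.5, 69.3 and 95.0 in Segment 1 and 156, 172, 123 and 119 in Segment 2, so all Segment 2 areas lay above all Segment 1 areas, as for 0.752% of the targets well above background. The specimen means were 79.5 ± 3.73 and 142 ± 30.7 (SD, n = 2 specimens), a difference of 0.83 ± 0.19 (adjusted p = 0.0364). The region differences ran from 1.27 in specimen 1 region 1 to 0.32 in specimen 2 region 2.

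The contractile genes were higher on average but none passed (0.0236% of all targets above background rose). Of 9 myofibroblast and contractile targets above background 8 had a positive difference. Their median was 0.35, against −0.095 for all targets above background. Of the 9, 4 were higher in 4 of 4 regions, as were 5.23% of all targets above background. Acta2, smooth muscle actin, had 486, 594, 373 and 515 in Segment 1 and 714, 836, 425 and 709 in Segment 2. It was higher in every pair, with overlap, and specimen 2 region 1 was low in both segments; the difference was 0.42 ± 0.13 (adjusted p = 0.275). The actin-binding genes Cald1, Tpm2, Tpm1 and Actn1 differed by 0.44, 0.44, 0.31 and 0.32 (adjusted p = 0.331, 0.399, 0.607 and 0.633). Tagln differed by 0.35 (0.742) and Postn, a matrix protein of the same list, by −0.12 (0.914).

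Fibroblast and matrix genes gave no call. The 12 fibroblast targets above background had a median of −0.14 and ran from −0.63 (Cd34, adjusted p = 0.0661) to 0.45 (Prrx1, 0.217), and the 19 collagen and matrix targets had a median of −0.25. Col3a1, the fibrillar collagen of early scar and the highest of these signals, was at 8716, 11671, 9661 and 25513 in Segment 1 and 9869.6, 10655, 7023 and 15069 in Segment 2. Specimen 2 region 2 was the highest area in both segments, by more in Segment 1. Col3a1 differed by −0.29 ± 0.34 (adjusted p = 0.903) and Col1a1 by −0.47 (0.623). The 16 ribosomal protein targets and 10 oxidative phosphorylation targets above background had medians of 0.052 and 0.11.

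**Figure D4:**
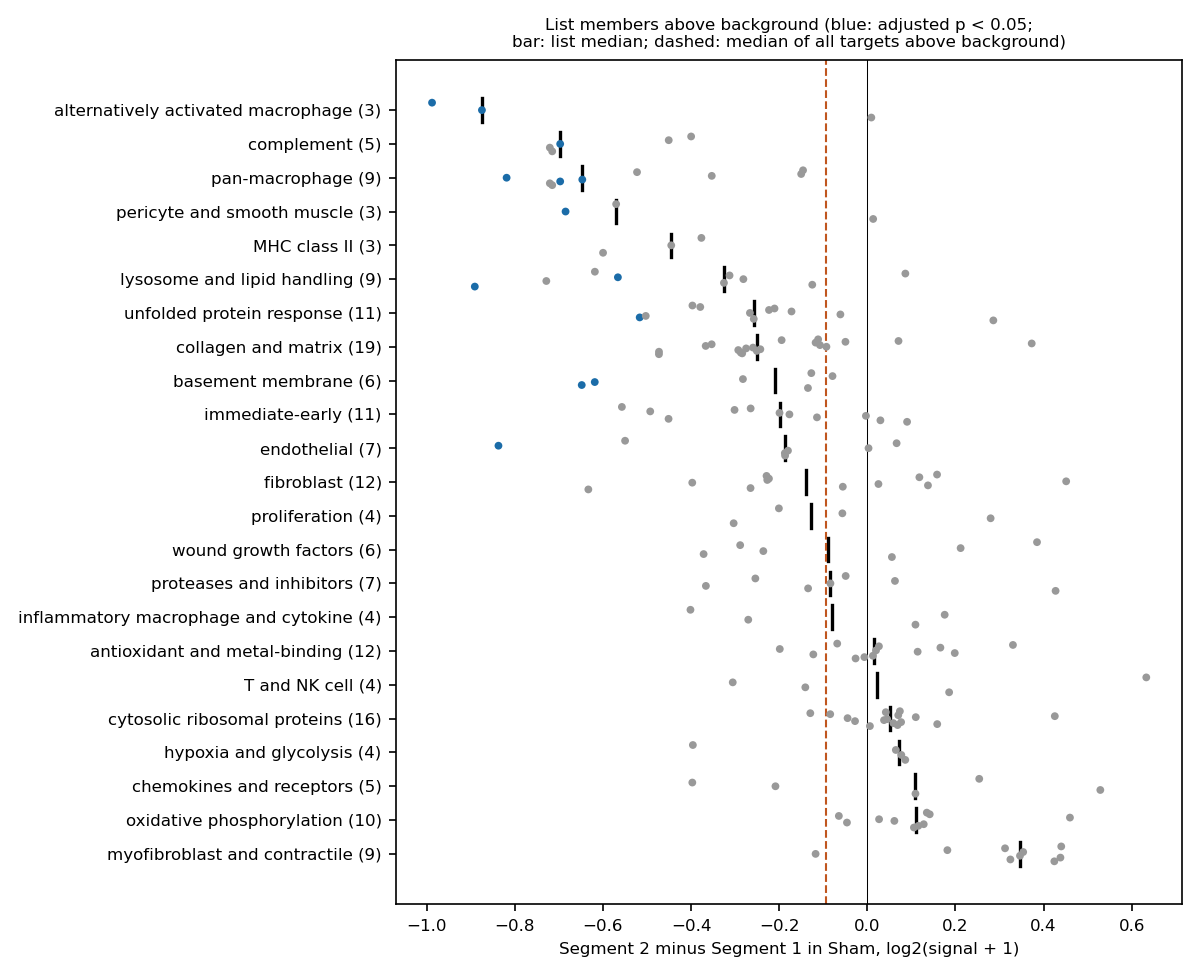
Difference between the segments (log2(signal + 1)) of the members above background of each gene list with at least 3 such members; the number stands in brackets, black bars are list medians and the dashed line is the median of all targets above background (−0.095). Blue points passed the threshold; they lie among the macrophage, complement, lysosome, pericyte, endothelial, basement membrane and unfolded protein response lists, and the contractile list has the highest median (0.35).

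The listed T, NK and B cell markers showed no call either. Lck, Cd2, Il7r and Cd247, the 4 of 15 T and NK cell targets above background, differed by 0.63, 0.19, −0.31 and −0.14. Cd3e was not above background in any area.

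At lower signal 10 more targets passed the threshold, 9 lower and 1 higher; they were named after their values were seen. Averaged over the 8 areas, 2 of these were above background, Stxbp2 (−1.28) and the sphingosine-1-phosphate exporter gene Spns2 (−1.16), and 8 were below it. Spns2 exceeded the area background in only 5 of 8 areas. Its Segment 2 values were 12.3, 12.3, 18.4 and 8.18, against backgrounds of 14.3 to 15.8 there. Stxbp2 was at a single count in specimen 1 region 1 of Segment 2, and without that region its difference was −0.53 (adjusted p = 0.454). The Segment 2 values of the 10 rested on 1 to 14 counts. Ppp1r13b had the largest fall of all targets (−1.61), with 20.2, 19.5, 26.0 and 21.7 in Segment 1 and 3.07, 2.45, 22.5 and 8.18 in Segment 2, its specimen 1 areas being at a single count each. The largest rise was Tas1r2 (1.85), a taste receptor subunit, at 1.44, 1.44, 1.44 and 1.05 in Segment 1 and 6.13, 9.81, 8.18 and 6.13 in Segment 2, which is 2, 4, 4 and 3 counts and under background in all 8 areas. Without Sham specimen 1 Ppp1r13b was at −0.75 (adjusted p = 0.999). The rest were Ldb2, Nova2, Tmem106a, Arhgap27, Lat and Map3k4, all lower. Ldb2 was at −0.93 without Sham specimen 2 and −0.89 without specimen 1 region 2, and Lat at −0.84 without specimen 1 region 1, none past the threshold.

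The comparison was repeated after thinning every deeper area to 118813 counts, the depth of the shallowest Sham area. CuNZ@Gel specimen 1 region 1 Segment 2, at 86386 counts, was already shallower and stayed as it was. All 23 targets called well above background kept their sign at this depth, and the falls lay between −1.17 and −0.42. The thinned counts were drawn from the areas that gave these calls, so a kept sign is no separate evidence. Lgmn (−0.51), Col4a1 (−0.61), Aplnr (−0.95), Cybb (−0.80) and Pld3 (−0.65) still passed the threshold, and 18 did not; Csf1r was at −0.73 (adjusted p = 0.079), Cd68 at −0.63 (0.083) and Palld at 0.92 (0.19). All 23 also kept their sign in edgeR on the recovered counts. It used the same areas and called 10 of the 23. The count of 23 became 3 without Sham specimen 1, 1 without Sham specimen 2, 10 or 11 without a Gel specimen, 41 without a CuNZ@Gel specimen, 13 without specimen 1 region 2 and 48 without specimen 2 region 2. Those that still passed were Aplnr, C1qc and Col4a1 without Sham specimen 1 and Lgmn without Sham specimen 2. Leaving out specimen 1 region 1, specimen 1 region 2, specimen 2 region 1 and specimen 2 region 2 in turn kept 18, 10, 11 and 22 of the 23, and blocking all 24 areas by region kept 19, without Aplnr, C1qc, Mcam and Col4a1.

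Whether the segment differences of Sham differed from those of the treated wounds was tested as Sham minus the mean of Gel and CuNZ@Gel. Only 8 of 19728 targets passed (0.0406%; 0.354% of those well above background), all with a higher value in Sham: Acta2, Vim, Igfbp4, Col15a1, Actb, Tmsb10, Actg1 and Col4a1. Acta2 had the largest contrast, with a segment difference of 0.42 in Sham against −0.80 (Gel) and −0.31 (CuNZ@Gel), a contrast of 0.98 ± 0.16 (limma adjusted p = 0.00131). The Acta2 signal itself was 33.4 to 146 in the Gel Segment 1 areas, 8.46 to 129 in the Gel Segment 2 areas, and higher in every Sham area. Its lowest Gel value, 8.46, was under the background of the Gel Segment 2 areas (14.3 to 16.35). In CuNZ@Gel the Acta2 signal was 356 to 567 in Segment 1 and 282 to 426 in Segment 2, which overlapped the Sham areas. For the cytoskeletal genes Vim, Actb, Tmsb10 and Actg1 the Sham differences were 0.16, 0.24, 0.25 and 0.16, against −0.43, −0.24, −0.28 and −0.44 in Gel and −0.37, −0.31, −0.14 and −0.33 in CuNZ@Gel.

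The depth gap between the segments differed between the treatments. In Gel, Segment 1 held 322155, 481140, 873471 and 531816 counts and Segment 2 213096, 688520, 165948 and 139682. In CuNZ@Gel these were 831658, 556548, 358592 and 447534, and 86386, 174136, 228761 and 244550. The thinned counts gave 7 targets against the gels, 6 higher and 1 lower in Sham, with 5 shared with the 8. Beyond that, the part of depth was not tested. The contrast also depended on the scaling. Over the targets well above background the Sham median was −0.081, while the Gel median was −0.26 and the CuNZ@Gel median −0.24. After scaling to the targets well above background 5 targets were higher and 7 lower in Sham; after quantile normalization 1 was higher (Tmsb10) and 9 were lower. The contrast kept its sign in all 8 genes under both. The count of 8 became 0 without Sham specimen 1, 1 without Sham specimen 2 or Gel specimen 1, 5 without specimen 1 region 2, 18 without specimen 2 region 2 and 29 without CuNZ@Gel specimen 2.

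Of the 22 falls in Sham, 20 were negative in Gel and 20 in CuNZ@Gel. The median of all targets well above background was −0.26 in Gel and −0.24 in CuNZ@Gel, so most of them were negative there too. Past the threshold were 5 of the 22 in Gel and 6 in CuNZ@Gel, where 3.14% and 3.94% of all targets well above background fell. Those past it in both were Aplnr (−0.82 and −1.69), Plvap (−0.88 and −1.19), Mcam (−0.95 and −1.57), Col4a1 (−0.98 and −1.37) and Hspg2 (−0.89 and −0.98). Ptprm, the other vessel wall gene, passed in neither (−0.70 and −0.38, adjusted p = 0.101 and 0.553). The sixth past it in CuNZ@Gel was Lgmn (−0.29, adjusted p = 0.0342), which was at −0.12 in Gel. Of the macrophage genes, Csf1r was at −0.23 and −0.42, Cd68 at −0.035 and −0.25, C1qc at −0.093 and 0.044, and Cybb at 0.070 and −0.34, none past the threshold. For 17 of the 22 the Sham value was farther below 0 than in both gels, but the contrast passed for none of these 17. Among the 22 it passed for Col4a1 alone, which was less negative in Sham than in both gels. For Csf1r the contrast was −0.49 ± 0.17 (adjusted p = 0.615), and for Cybb −0.61 ± 0.17 (0.321), so a difference between the treatments was not shown for the macrophage genes.

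**Figure D5:**
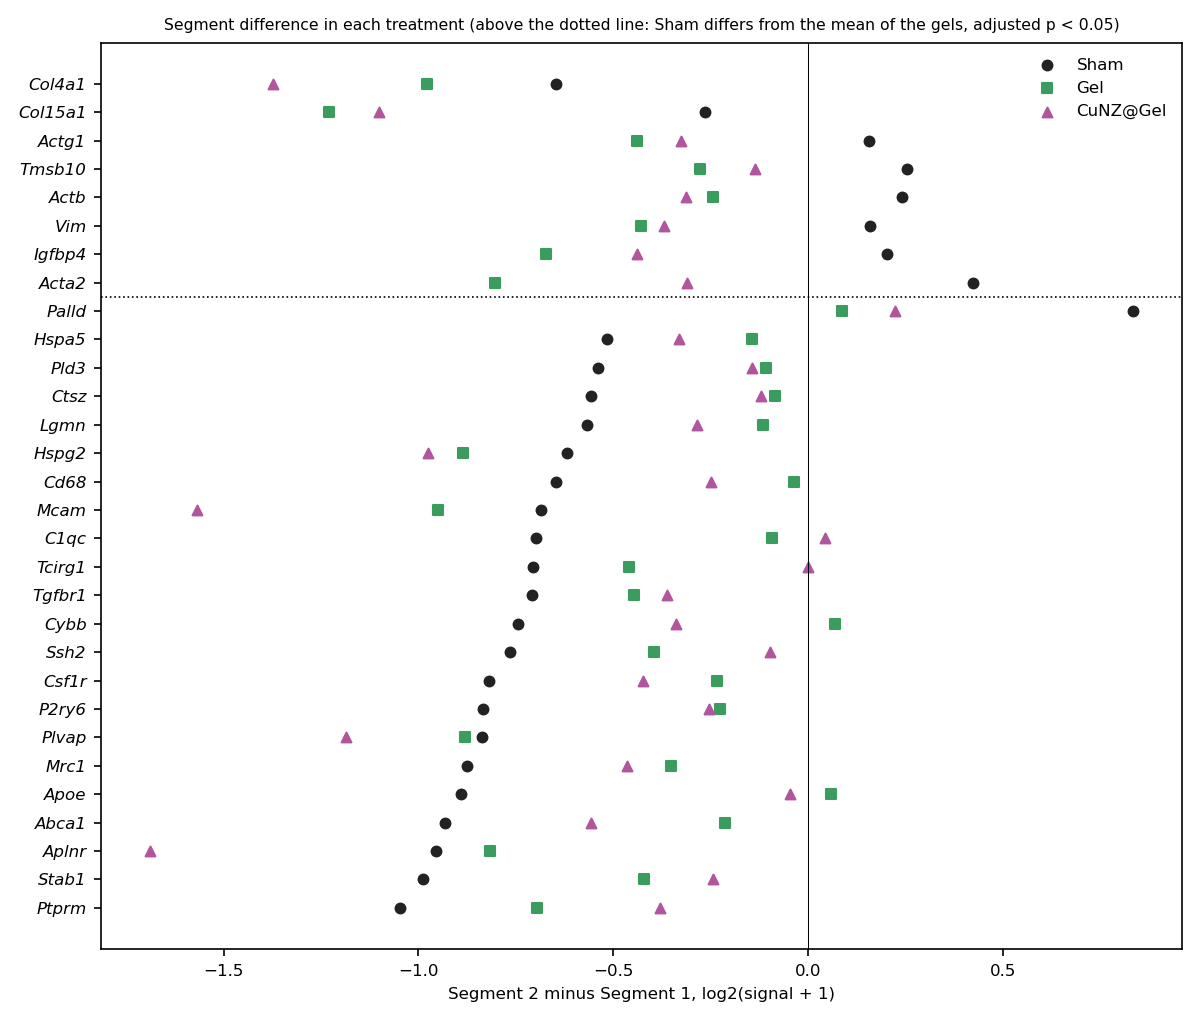
Segment difference (Segment 2 minus Segment 1, log2(signal + 1)) in Sham, Gel and CuNZ@Gel for the targets called well above background in Sham and, above the dotted line, the 8 whose Sham difference passed against the mean of the gels. Plvap, Mcam, Aplnr, Hspg2 and Col4a1 are negative in all 3 groups, while Acta2 is at 0.42 in Sham and −0.80 in Gel.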

How the data were processed

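Each deposited file held 1 area's signal for 19962 targets and a negative probe. The signal had been scaled by the authors, the values having a 75th percentile of 12.26 in each Sham area; which software counted the tags and filtered the probes is not given in the sources used here. Dividing by an area's lowest value gave whole numbers (tolerance 0.01) for 99.98% to 99.995% of targets, so counts were recovered this way. The design foresaw a count test for count files and a log-scale test for scaled values, and the latter was used.

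Signal was analysed as log2(value + 1), which understates changes of low targets. A target was tested if it exceeded the negative probe in 4 or more of 24 areas (19728). Each specimen's 2 regions were averaged per segment. limma 3.58.1 (R 4.3.3) was fitted to the 12 means (specimen as a block, treatment by segment, eBayes with trend and robust), with Benjamini-Hochberg adjustment and a threshold of 0.05. The residual degrees of freedom were 3 and the median prior ones 55.8, so the spread is largely pooled over targets and the p-values may be too small. The specimen label pairs the segments, and the specimens deviated together in both segments (r = 0.427 over 2261 targets). edgeR 4.0.16 and DESeq2 1.42.0 were run on the recovered counts summed per specimen and segment.

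Named were the 12 largest rises and falls past the threshold, well above background and alike in 4 of 4 regions, up to 4 called members of each of 34 gene lists by smallest p, and a fixed panel. The members and lists were chosen with earlier results of these data known. Alternative scalings, filters, tests and omitted areas are given at the end.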

Additional observations from a re-analysis of the deposited data

Results flagged for a closer look

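In 4 of the 120 groups of 4 areas examined, 1 area stood apart by Dixon's criterion, which chance gives in about 1 in 20 groups. H2-Ab1 had a signal of 118.3 in specimen 1 region 2 of Segment 1, against 258 to 272 in the other Segment 1 areas, and its own Segment 2 partner was also lowest. Col15a1, a collagen of vessel basement membranes, was at 119 in specimen 2 region 2 of Segment 1, against 279 to 303. Krt5 was at 0.721 in specimen 1 region 2 of Segment 1, against 5.26 to 6.49, and Tas1r2 was at 1.05 in specimen 2 region 2 of Segment 1, against 1.44. Both lay under background.

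The segment difference of 8 genes was higher in Sham than the mean of Gel and CuNZ@Gel (limma, adjusted p under 0.05). The contrasts were 0.98 for Acta2, 0.90 for Col15a1, 0.76 for Igfbp4, 0.56 for Vim, 0.54 for Actg1, 0.53 for Col4a1, 0.52 for Actb and 0.46 for Tmsb10, in log2 units. Acta2, Vim, Igfbp4, Actb, Tmsb10 and Actg1 had positive differences in Sham and negative ones in both gel groups, while Col15a1 and Col4a1 were negative in all 3.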

How the results depend on the processing

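Segment 2 was shallower in every Sham pair, so few counts limit its low targets, and 2 specimens limit every p-value. No called target changed sign in the alternatives that tested it, 24 each or, for the 8 below background, 23. These alternatives reused areas that gave the calls, so a kept sign is no separate evidence. Lgmn, Col4a1, Aplnr and Cybb lost the call in 5 alternatives each, Csf1r, Stab1 and Ptprm in 6. The other calls well above background were less steady. P2ry6 lost it in 7, Abca1 in 9, Cd68 and Ctsz in 10, and Hspg2, Tgfbr1, Tcirg1 and Pld3 in 11. Apoe, Ssh2 and Palld lost it in 12, Plvap, Mcam and C1qc in 13, Hspa5 in 14 and Mrc1 in 16. At lower signal the losses ran from 6 (Ppp1r13b) to 16 (Nova2 among others). Of the uncalled, Arg1 changed sign in 5 and Col3a1 in 2; the causes were not tested.

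The counts of calls over all targets, well above background, and against the gels were 33, 23 and 8. Centred differences gave 15, 11 and 2, thinned counts 8 and 5 (and 7 against the gels), and edgeR 15, 11 and 1. DESeq2 gave 0, 0 and 0 (119, 58 and 71 at an unadjusted p under 0.05), limma without trend and robust 0, 0 and 0 (1462, 50 and 921), and limma with no replicate block 0, 0 and 0 (1323, 133 and 798). The 8 Sham areas alone gave 104 and 74, but regions of a specimen share their source and those p-values are too small. Against the gels, background subtraction gave 19, a pseudocount of 5 gave 4, testing only targets above background 0 in limma (420 at an unadjusted p under 0.05), and 24 areas blocked by region 3. Leaving out a specimen or region gave 3 to 94, 1 to 48 and 0 to 29. The other alternatives stayed within 1.5 times. The arm left with 1 specimen was assumed to vary like the others.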

Other observations

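Groups with no call held values of their own. Sod2, the mitochondrial superoxide dismutase, was higher in Segment 2 in 4 of 4 regions (0.33, limma adjusted p = 0.156), while the other antioxidant and metal-binding targets above background stayed between −0.20 (Mt2) and 0.20 (Gpx3), among them Fth1 at −0.0067 and Mt1 at 0.020. Sod2 passed the threshold in 8 of 24 alternatives, among them centring, quantile normalization and background subtraction. Tmsb10, which binds actin monomers, was higher in 4 of 4 regions (0.25, adjusted p = 0.242) with signals of 2256, 2676, 2462 and 2859 in Segment 1 and 2747, 3316, 2929 and 3217 in Segment 2. The groups overlapped, as the lowest Segment 2 area lay below the highest Segment 1 area. A rise in 4 of 4 regions was seen in 5.23% of all targets above background.

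Among secreted factors, Cxcl12 was higher in Segment 2 in 4 of 4 regions (0.25, adjusted p = 0.658) and so was Wnt5a (0.39, 0.653). Tgfb1 and Hgf were lower in 4 of 4 regions (−0.29 and −0.37, 0.597 and 0.764). None passed the threshold. Of all targets above background, 5.23% were higher and 13.8% lower in 4 of 4 regions. The collagenase gene Mmp13 differed by 0.43 (0.578) and the membrane protease gene Mmp14 by −0.13 (0.752).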
